A study of Mus musculus with 3 samples.

Results

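Egr1, Egr2, Egr3, Nr4a1, Nr4a2, Nr4a3, Nab2 and Cd5, 8 genes that report signals from the T cell receptor (TCR), were followed in thymic cells sorted for invariant natural killer T (iNKT) cells. The cells came from mice with and without graft-versus-host disease (GvHD), and the sorts after transplantation also held other cells. They were matched by symbol among the 30406 gene identifiers that the 3 count tables share, each symbol met 1 identifier, and all 8 had UMIs in every library. The WT library came from C57BL/6 mice without bone marrow transplantation (BMT), aged 7 weeks by the labels. The other libraries came from F1 (C57BL/6 x BALB/c) mice aged 16 weeks that had been lethally irradiated and given CD3-depleted C57BL/6 marrow 9 weeks before, either alone (Non-GVHD) or with C57BL/6 splenic cells (GVHD). Both BMT groups therefore share the irradiation, the mixed-strain host and the donor marrow, and WT differs from them in age, host strain and all of these. In each library CD8+ cells had been depleted and TCRβ+CD1d-tet+CD24-NK1.1- cells sorted. Each library pooled several mice, whose cells cannot be assigned to a mouse here, and with 1 library per condition no difference between conditions has a replicate check.

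The T cell receptor of developing iNKT cells recognises lipids on CD1d, and its signals switch on early genes within minutes. Egr1, Egr2 and Egr3 are zinc-finger transcription factors of that early wave, and Egr2 takes part in turning on Zbtb16, which encodes PLZF, the factor that defines the innate-like program of these cells. Nr4a1, Nr4a2 and Nr4a3 are orphan nuclear receptors; Nr4a1, also called Nur77, is widely used as a reporter of TCR signals. Nab2 is a co-repressor that is induced by Egr factors and binds them. Cd5 is a surface receptor that dampens TCR signals, and its level on thymocytes is set by how much signal they receive. The study looked for reasons why NKT1 cells return slowly when GvHD develops, and one question was whether the thymus provides altered TCR and co-stimulatory signals. The early genes also respond to tissue handling, so Fos and other stress genes are given beside them.

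Cells with more than 200 and fewer than 6000 genes and under 10% mitochondrial UMIs numbered 4434 in WT, 5970 in Non-GVHD and 5557 in GVHD. The median UMIs per cell were 12086.5, 4740 and 6495. No barcode of the WT library occurred in the others, while Non-GVHD and GVHD shared 43. Cells were placed in gates by UMIs of marker genes. The NKT2 gate (mostly Zbtb16 and Il17rb UMIs) held 1510 WT, 477 Non-GVHD and 827 GVHD cells. The NKT1 gate (mostly UMIs of Tbx21, Nkg7, Gzma, Gzmb, Klrd1, Ccl5 and Xcl1) held 1014, 2609 and 728. A mixed gate between them held 538, 148 and 180. Foxp3, Cd8a and Cd8b1, B cell and myeloid genes set aside the other cells of the sort, which were few in WT; the gate of Foxp3+ cells alone held 3, 633 and 694.

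A gate is a class of marker UMIs and not a sorted population, and 140, 111 and 31 of the NKT1 gate cells lay within 10 percentage points of the cut on the NKT1 share of marker UMIs. The NKT1 gate was not of like makeup in the BMT libraries. Among cells whose V beta UMIs named a segment, 92.25% (2011 of 2180) used a V beta segment typical of iNKT cells in Non-GVHD and 39.14% (236 of 603) in GVHD, against 96.29% and 95.62% in the NKT2 gate. The summed level of the iNKT V alpha genes Trav11 and Trav11d was 58.15 CPM (UMIs scaled to the same total in every gate and library) in the NKT1 gate of WT and at most 5.147 CPM in that of the BMT libraries. The V alpha genes could thus not check the label in the latter. The WT table was made with an earlier version of the counting software than the BMT tables, and a V beta segment could be named in 331 of 1510 WT cells of the NKT2 gate but in 404 of 477 Non-GVHD cells. WT levels are therefore set beside those of the BMT libraries without a ratio.

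The 8 genes lie on 7 chromosomes in build GRCm38, with Egr2 (chr10:67535475-67542188, plus strand) and Nab2 (chr10:127660918-127668568, minus strand) far apart on chromosome 10. Nab2 overlaps Stat6 by 40 bases and the genes Gm16229 and Nemp1 on the opposite strand. The Nr4a genes are at chr15:101254269-101274795 (Nr4a1, plus), chr2:57106830-57124003 (Nr4a2, minus) and chr4:48045153-48086447 (Nr4a3, plus). Egr3 is at chr14:70077203-70082614 (plus) and Cd5 at chr19:10717116-10739002 (minus).

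The bases before a RefSeq start of each Nr4a gene and of Egr2 are shown because these 4 genes were higher together in the NKT1 gate of GVHD. For Nr4a3 the stretch ends at the gene start given above and leaves out the bases next to the RefSeq start. The sequences are from RefSeq (build GRCm38.p6), 5′ to 3′ on the gene's strand. The capitals mark TGACG on either strand, the core of the cAMP response element that CREB and ATF factors bind, and in Egr2 also a CArG box, the element bound by serum response factor.
Nr4a1, chr15:101266596-101266845, plus strand: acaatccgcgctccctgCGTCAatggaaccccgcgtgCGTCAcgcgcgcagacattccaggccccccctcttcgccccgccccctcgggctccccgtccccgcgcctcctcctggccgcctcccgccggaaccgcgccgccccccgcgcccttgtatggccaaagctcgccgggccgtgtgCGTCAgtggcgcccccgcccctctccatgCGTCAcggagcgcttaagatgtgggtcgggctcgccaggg
Nr4a2, chr2:57124004-57124253, minus strand: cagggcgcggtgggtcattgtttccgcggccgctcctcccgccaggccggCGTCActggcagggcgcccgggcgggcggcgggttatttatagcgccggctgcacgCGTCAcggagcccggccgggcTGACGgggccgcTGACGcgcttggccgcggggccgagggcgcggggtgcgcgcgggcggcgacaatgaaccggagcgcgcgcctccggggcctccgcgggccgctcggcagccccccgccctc
Nr4a3, chr4:48045055-48045152, plus strand: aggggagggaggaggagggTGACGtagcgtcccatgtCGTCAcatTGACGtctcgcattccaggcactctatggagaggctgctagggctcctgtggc
Egr2, chr10:67537749-67537868, plus strand: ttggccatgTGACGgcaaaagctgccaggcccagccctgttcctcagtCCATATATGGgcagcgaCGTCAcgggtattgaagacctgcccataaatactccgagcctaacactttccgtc

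TGACG was found 4 times in the 300-base window around the start of each Nr4a gene, counting both strands. For Nr4a3 the stretch above shows 3 of them. At least 4 copies occurred in 0.231% and at least 1 in 20.8% of 32851 such windows in the RefSeq table. Of the 5 Egr2 windows, the 3 that overlap one another each held 2 copies of TGACG and 1 CArG box, and of the other Egr2 windows 1 held a CArG box and none TGACG. A CArG box was present in 1.63% of all windows. The windows of Nab2 and of Cd5, which was also higher in the NKT1 gate of GVHD, held neither. Windows of Egr1 and Egr3 were not examined. Whether these matches set the higher genes apart from the others was therefore not tested. These are matches of letters and not measured binding sites.

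In the WT library the Egr factors, Nr4a1, Nab2 and Cd5 were all at higher CPM in the NKT2 gate than in the NKT1 gate, by 1.16- to 2.04-fold. Counts of genes below use a ratio of at least 1.5-fold with at least 50 UMIs over both sides, and the intervals in brackets are exact 95% intervals that cover counting error only. By that rule 5 of the 6 genes with enough UMIs were higher and 0 lower, where 13.3% of 10119 genes were higher and 15.1% lower. Egr2 was at 18.46 CPM in the NKT2 gate and 11.26 CPM in the NKT1 gate (log2 ratio 0.71, 0.36 to 1.08). Nr4a1 was at 10.19 and 4.989 CPM (log2 ratio 1.03, 0.51 to 1.59), and Cd5 at 177.5 and 93.07 CPM (log2 ratio 0.93, 0.81 to 1.05). The co-repressor Nab2 was at 50.14 and 31.36 CPM (log2 ratio 0.68), close to the 0.69 of Egr1. Egr3 differed least, at 40.26 and 34.78 CPM (log2 ratio 0.21, 0.01 to 0.42). Nr4a2 and Nr4a3 were near the limit of detection in WT, with 10 and 17 UMIs in the NKT2 gate and 16 and 12 in the NKT1 gate.

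**Figure D1:**
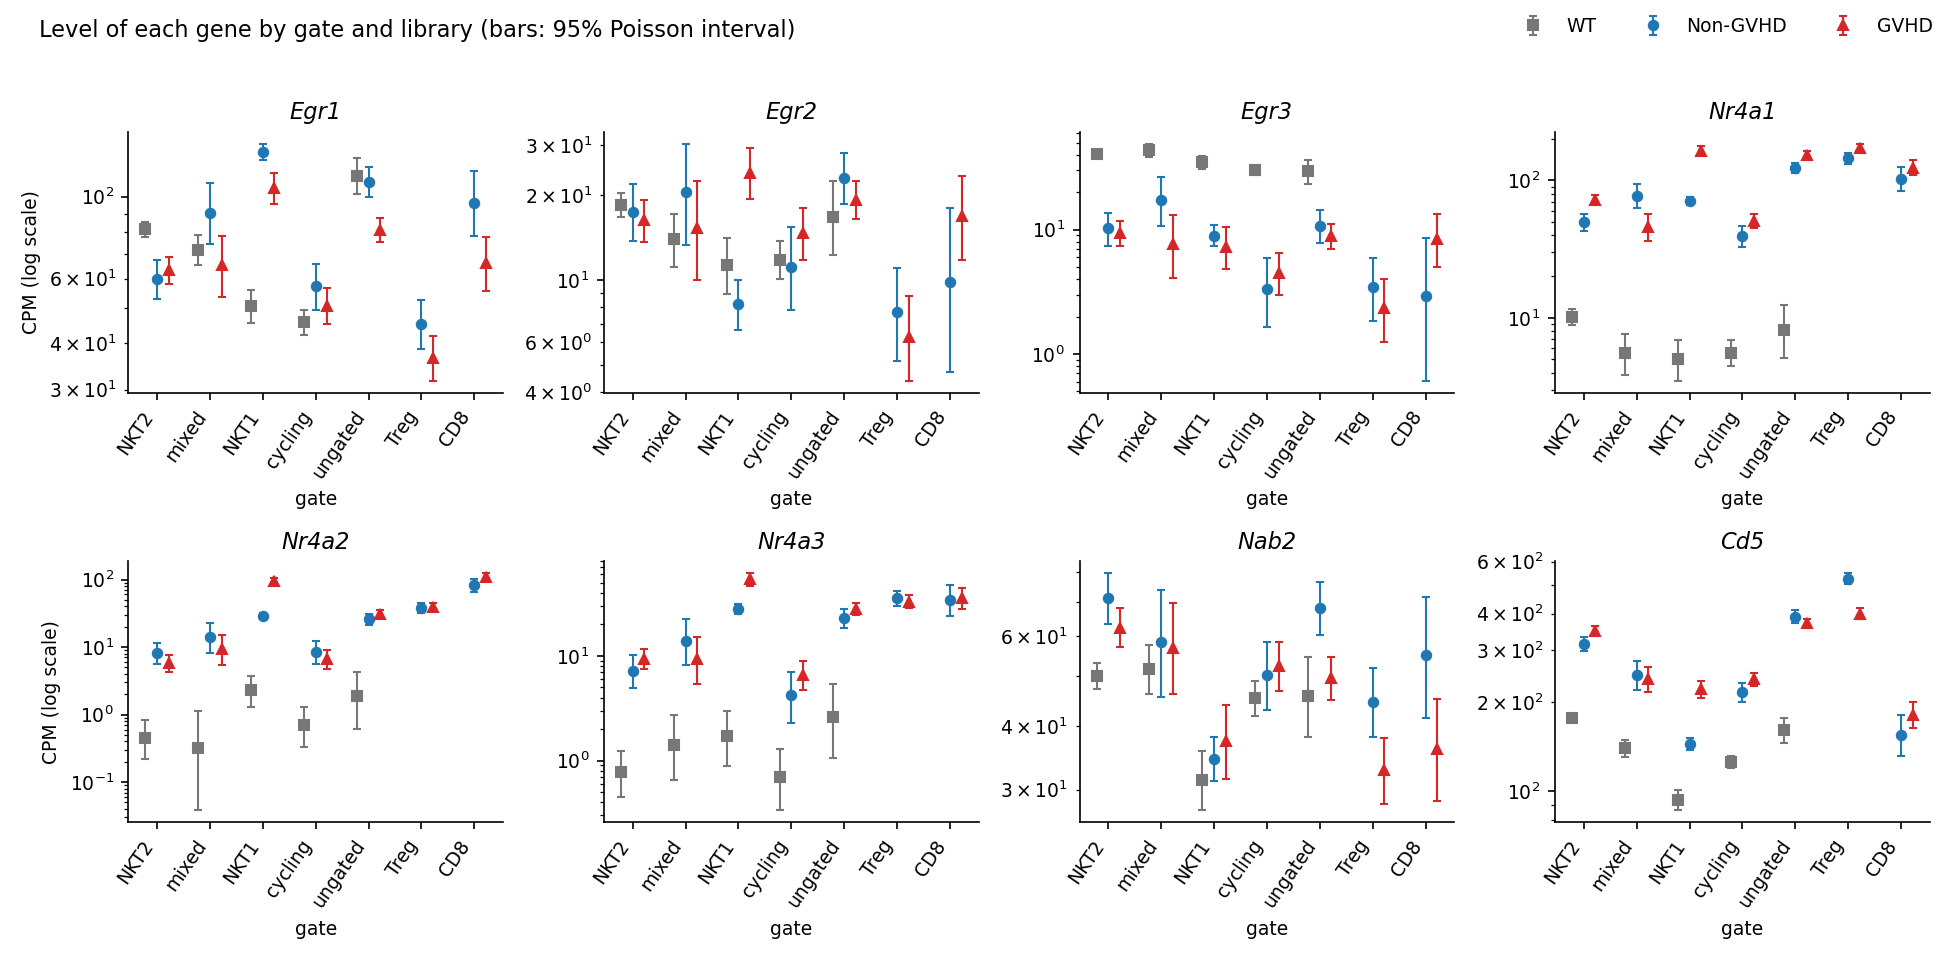
Level of each of the 8 genes (CPM, y axis) by gate (x axis) in the WT, Non-GVHD and GVHD libraries, with exact 95% Poisson intervals. Cd5 and Nab2 were higher in the NKT2 than in the NKT1 gate of all 3 libraries, while Nr4a2 was higher in the NKT1 gate of both BMT libraries.

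After BMT only part of this pattern was present. Cd5 and Nab2 were again higher in the NKT2 gate in both BMT libraries, while the Nr4a genes and Egr1 were higher in the NKT1 gate. In Non-GVHD 3 of the 8 genes were at least 1.5-fold higher in the NKT2 gate (14.5% of all genes tested) and 3 were lower (17.5%). In GVHD 2 were higher (13.3%) and 4 lower (18.4%). Cd5 was at 315.2 CPM in the NKT2 gate and 144.6 CPM in the NKT1 gate of Non-GVHD, and at 350.1 and 221.4 CPM in GVHD (log2 ratios 1.12 and 0.66). Nab2 was at 71.13 and 34.51 CPM in Non-GVHD and at 62.27 and 37.32 CPM in GVHD (log2 ratios 1.04 and 0.74). The brake receptor and the co-repressor thus kept the direction seen in WT.

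Egr2 parted the BMT libraries. It was at 17.43 CPM in the NKT2 gate and 8.185 CPM in the NKT1 gate of Non-GVHD (log2 ratio 1.09, 0.64 to 1.54), but at 16.28 and 23.94 CPM in GVHD (log2 ratio -0.56, -0.95 to -0.16). Its NKT2 gate level differed little between the BMT libraries, and the NKT1 gate of GVHD held the higher value. Egr3 differed little between the gates, at 10.23 and 8.944 CPM in Non-GVHD and 9.388 and 7.207 CPM in GVHD.

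Nr4a2 was at 8.136 CPM in the NKT2 gate and 29.11 CPM in the NKT1 gate of Non-GVHD and at 5.823 and 96.01 CPM in GVHD (log2 ratios -1.84 and -4.04). Nr4a3 was at 7.206 and 28.1 CPM in Non-GVHD and 9.388 and 54.05 CPM in GVHD (log2 ratios -1.96 and -2.53). Nr4a1 was at 49.51 and 70.71 CPM in Non-GVHD and 72.02 and 164.5 CPM in GVHD (log2 ratios -0.51 and -1.19). In GVHD all 3 receptors were therefore more than 2-fold higher in the NKT1 gate, Nr4a2 by the widest margin of the 8 genes, and in Non-GVHD Nr4a1 stayed under 1.5-fold.

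Egr1, at chr18:34859823-34864984 on the plus strand, was at 59.74 CPM in the NKT2 gate and 132.5 CPM in the NKT1 gate of Non-GVHD and at 63.1 and 105.5 CPM in GVHD (log2 ratios -1.15 and -0.74), opposite to WT. In the BMT libraries stress genes were also lower in the NKT2 gate. Fos was at 347.5 and 1419 CPM in Non-GVHD and 148.3 and 832.4 CPM in GVHD, and at only 13.44 and 44.61 CPM in WT. Of 15 AP-1 and dissociation stress genes, 13 were lower in the NKT2 gate in each BMT library and none was higher. Over all genes tested, 17.5% were lower and 14.5% higher in Non-GVHD, and 18.4% and 13.3% in GVHD. In WT, where Egr1 was higher in the NKT2 gate, 7 of 12 stress genes were lower there and 1 was higher (15.1% and 13.3% of all genes tested). Without cells holding more than 2 Fos UMIs, an alternative added after seeing the data, the log2 ratio of Egr1 was -0.06 in Non-GVHD and -0.19 in GVHD, that of Nr4a1 was 0.01 and -1.06. This cut removed unlike shares of the gates. In Non-GVHD it left 273 of 477 NKT2 gate cells and 918 of 2609 NKT1 gate cells, and in GVHD 650 of 827 and 345 of 728. The part of handling in these ratios was not tested.

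**Figure D2:**
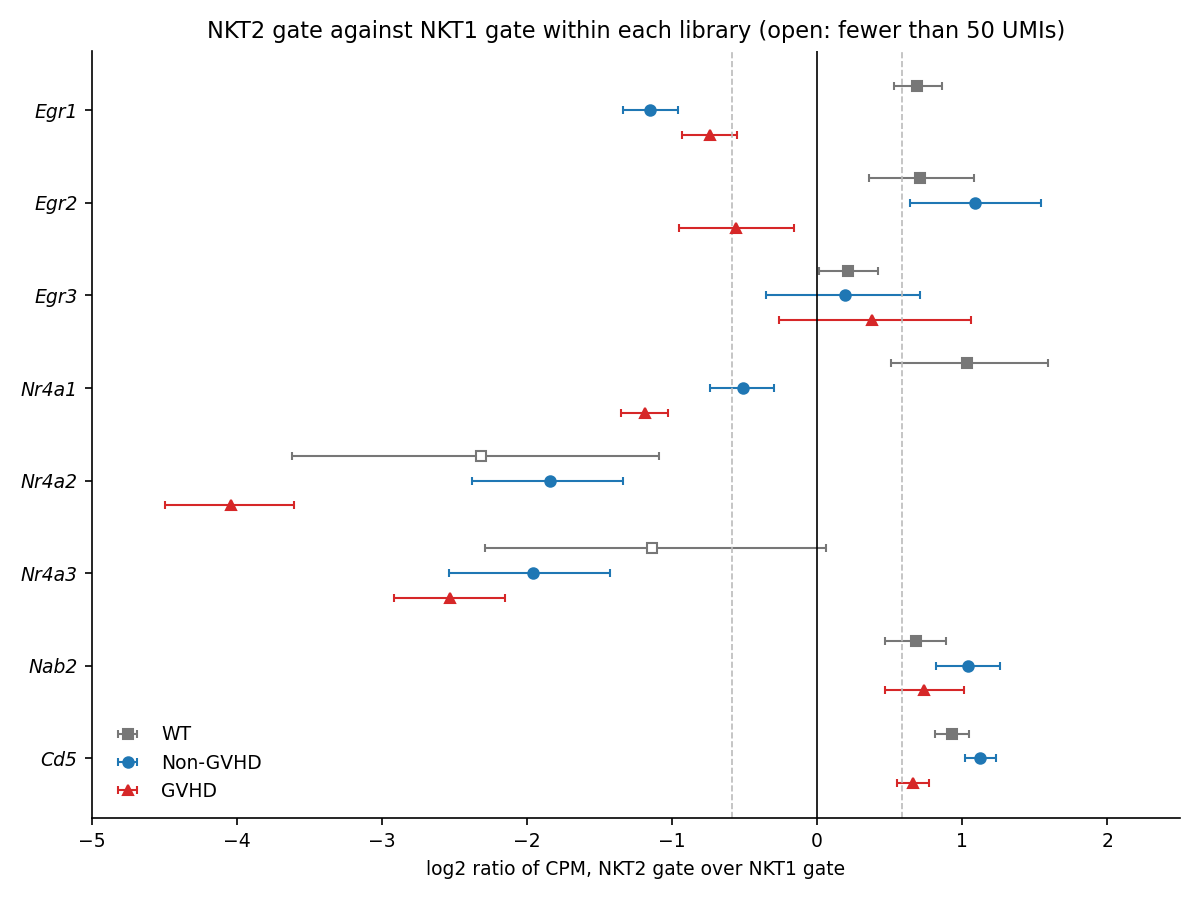
Log2 ratio of CPM in the NKT2 gate over the NKT1 gate (x axis) for each gene (y axis) in the 3 libraries, with exact 95% counting intervals; dashed lines mark 1.5-fold. Nab2 and Cd5 lie right of 0 in every library, while Egr1 and Nr4a1 lie right of 0 in WT and left of 0 in both BMT libraries.

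Other early TCR targets divided along the same gates. Id3, an inhibitor of E proteins induced by Egr factors, was at 512.6, 559.1 and 505.2 CPM in the NKT2 gate of WT, Non-GVHD and GVHD and at 76.54, 63.12 and 56.11 CPM in the NKT1 gate. Cd69, an early activation marker, ran the other way in every library, with log2 ratios of -2.46, -2.71 and -2.96. Pdcd1, which encodes PD-1, was higher in the NKT2 gate in WT and Non-GVHD (log2 ratios 2.41 and 2.52) but not in GVHD (-0.32). Of 12 such targets tested per library, 6, 3 and 2 were higher in the NKT2 gate and 2, 4 and 6 lower, where 13.3%, 14.5% and 13.3% of all genes were higher and 15.1%, 17.5% and 18.4% lower. The counts higher in Non-GVHD and GVHD were thus near the share over all genes. Of the genes that act as brakes on TCR signals, 8 of 15 were lower in the NKT2 gate in WT, 9 of 16 in Non-GVHD and 10 of 16 in GVHD. Ubash3a and Spry2 were among the lower ones in each library. Brakes higher in the NKT2 gate numbered 1, 3 and 1. They were Spry1 in WT, Spry1, Dgkz and Ubash3b in Non-GVHD, and Dgkz in GVHD. Of the chains and adaptors that transmit the signal, such as Lck, Zap70 and Lat, 8, 8 and 10 of 11 genes stayed within 1.5-fold. The 8 of 11 in WT and in Non-GVHD were near the share over all genes tested.

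The central comparison of the design sets GVHD against Non-GVHD within a gate. In the NKT1 gate all 3 Nr4a receptors, Egr2 and Cd5 were higher in GVHD, and Egr1, Egr3 and Nab2 were not. By count 5 of the 8 genes were at least 1.5-fold higher and 0 lower, against 11.3% and 10.3% of 9798 genes. Nr4a2 was at 29.11 CPM in Non-GVHD and 96.01 CPM in GVHD (log2 ratio 1.72, 1.51 to 1.94). Egr2 was at 8.185 and 23.94 CPM (1.55, 1.12 to 1.97), and Nr4a1 at 70.71 and 164.5 CPM (1.22, 1.07 to 1.37). Nr4a3 followed at 28.1 and 54.05 CPM (0.94, 0.69 to 1.2), and Cd5 at 144.6 and 221.4 CPM (0.61, 0.49 to 0.73). The median log2 ratio of the 8 was 0.78, beside 0.03 over all genes tested.

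The 3 remaining genes lay within 1.5-fold in that gate. Egr1 was at 132.5 CPM in Non-GVHD and 105.5 CPM in GVHD (log2 ratio -0.33, -0.49 to -0.17). Egr3 was at 8.944 and 7.207 CPM (-0.31, -0.97 to 0.3), and Nab2 at 34.51 and 37.32 CPM (0.11, -0.17 to 0.39). The Egr genes thus did not go together: Egr2 was higher while the intervals of Egr1 and Egr3 lay below or around 0. Fos was lower in GVHD, at 1419 and 832.4 CPM. Of the 15 stress genes 7 were lower, 0 higher and 8 within 1.5-fold, where 10.3% of all genes tested were lower and 11.3% higher. The part of handling in the higher Nr4a and Egr2 levels was not tested.

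Whether the difference was particular to the NKT1 gate was not tested, and not every gate is described here. In the NKT2 gate the same comparison gave 0 of the 8 genes at least 1.5-fold higher and 0 lower, where 1.40% of 9203 genes were higher and 3.19% lower. Nr4a1 came closest, at 49.51 CPM in Non-GVHD and 72.02 CPM in GVHD (log2 ratio 0.54, 0.31 to 0.77). Egr2 was at 17.43 and 16.28 CPM (-0.1, -0.52 to 0.33), and Cd5 at 315.2 and 350.1 CPM (0.15, 0.06 to 0.25). The other 5 log2 ratios ran from -0.48 (Nr4a2) to 0.38 (Nr4a3). Of 14 stress genes 6 were lower in GVHD, among them Hspa1a, at 112.7 and 6.061 CPM.

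In the mixed gate, where cells hold UMIs of both programs, 5 of the genes had enough UMIs, with 0 higher and 1 lower (2.86% and 4.08% of all genes tested). The lower gene was Nr4a1, at 77.36 CPM in Non-GVHD and 45.76 CPM in GVHD (log2 ratio -0.76, -1.21 to -0.31). Egr1 was at 90.52 and 65.12 CPM (-0.48, -0.87 to -0.08). Nr4a1 thus differed in opposite directions in the NKT1 and mixed gates, and the latter rests on 94 and 78 UMIs. With each cell thinned to 2700 UMIs before gating, the log2 ratio of Nr4a1 in the mixed gate was 0.04, so that this call was lost.

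In the cycling gate 1 of 7 genes was higher and 0 lower (2.11% and 3.99% of all genes tested). This was Nr4a3, with 14 UMIs in Non-GVHD and 41 in GVHD and an interval that spans 0 (log2 ratio 0.65, -0.26 to 1.64).

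**Figure D3:**
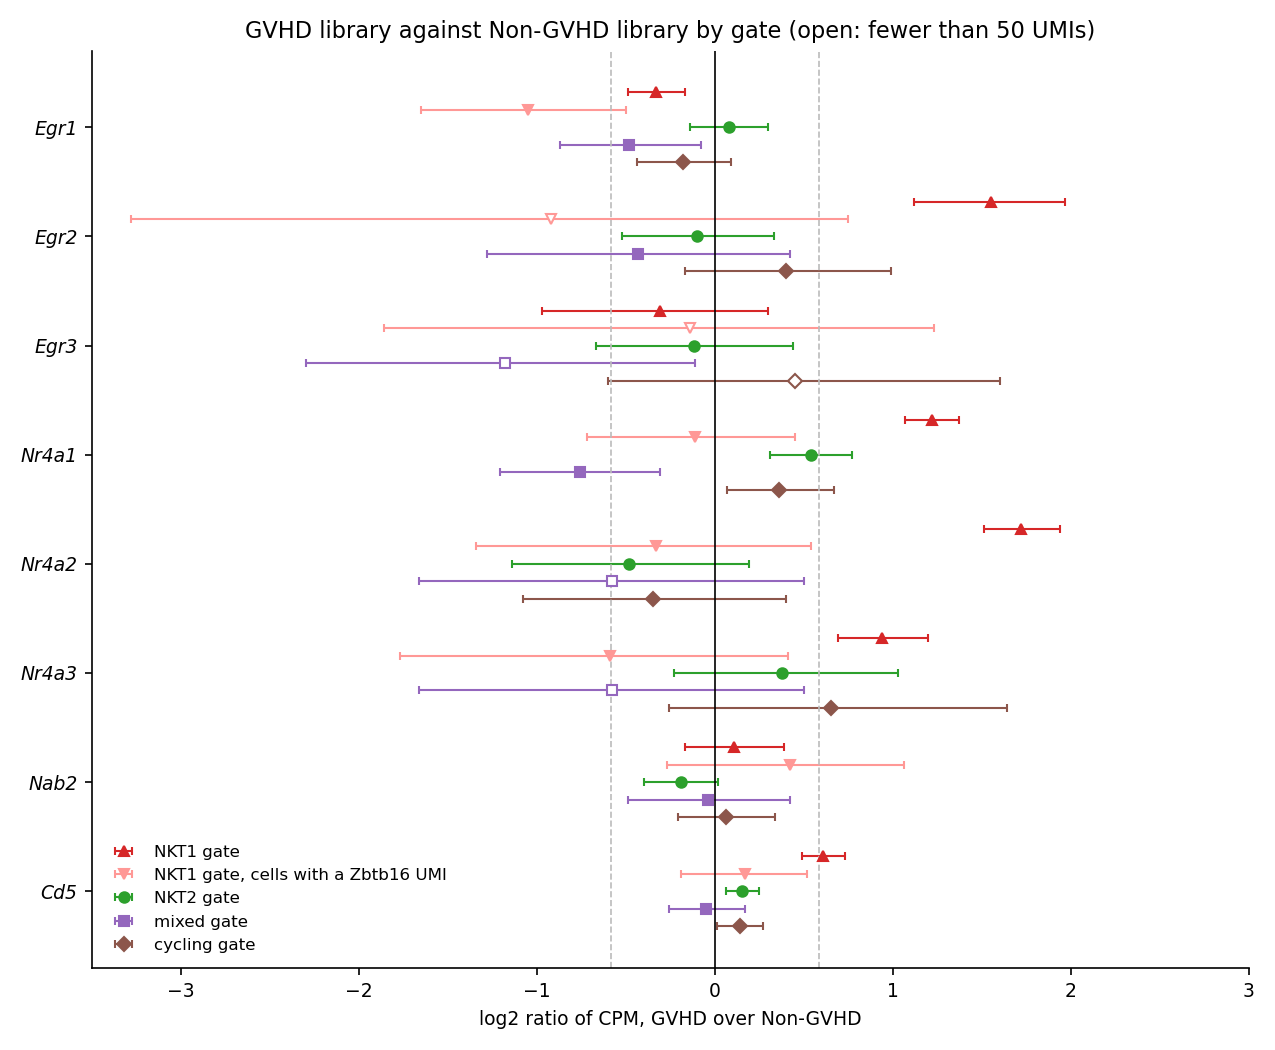
Log2 ratio of CPM in GVHD over Non-GVHD (x axis) for each gene (y axis) by gate, with exact 95% counting intervals; dashed lines mark 1.5-fold. In the NKT1 gate Egr2, Cd5 and the 3 Nr4a genes lie right of the upper line, while in the NKT2 gate all 8 genes lie between the lines.

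Because the NKT1 gate differed in receptor use, the comparison was repeated by V beta. Among cells with an iNKT V beta segment, 2011 in Non-GVHD and 236 in GVHD, the same 5 genes were higher and none lower, against 10.3% and 13.1% of 9039 genes. Egr2 was at 8.086 CPM in Non-GVHD and 37.19 CPM in GVHD (log2 ratio 2.2, 1.65 to 2.74), and Nr4a1 at 70.59 and 198.4 CPM (1.49, 1.28 to 1.7). Nr4a2 was at 27.75 and 89.11 CPM (1.68), Nr4a3 at 29.17 and 52.69 CPM (0.85) and Cd5 at 141.9 and 222.4 CPM (0.65). The log2 ratios of Egr2 and Nr4a1 were larger than in the whole gate, where they were 1.55 and 1.22. Cells with other V beta segments, 169 and 367, gave log2 ratios of 2.23 for Nr4a2, 1.11 for Nr4a1 and 1.13 for Nr4a3, and in them Egr2 had 2 UMIs in Non-GVHD and 28 in GVHD. In the same cells Egr1 was higher in GVHD, at 90.85 and 137.4 CPM (log2 ratio 0.6, 0.2 to 1.01), where cells with iNKT segments gave -0.51 (-0.8 to -0.24), and Cd5 stayed under 1.5-fold (0.34). Within GVHD, Egr2 was lower in cells with other segments than in those with iNKT segments, at 15.71 and 37.19 CPM (log2 ratio -1.24, -1.97 to -0.54).

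An iNKT V beta segment does not by itself identify an iNKT cell, since conventional T cells use the same segments: in the gate of Foxp3+ cells 29.02% of named segments in Non-GVHD and 28.92% in GVHD were of this kind. Genes of regulatory T cells were higher in the GVHD cells of the NKT1 gate. Ikzf2, Ctla4 and Il2ra, genes typical of regulatory T cells, were at 52.48, 11.48 and 24.72 CPM in Non-GVHD and at 131.8, 170.9 and 98.58 CPM in GVHD. Of these, Ikzf2 is no mark of other T cells on its own, since it was at 169.9 CPM in the NKT1 gate and 160.7 CPM in the NKT2 gate of WT, where Ctla4 was at 0.4276 and 0.4113 CPM. In the gate of Foxp3+ cells these 3 genes ran from 369 to 582 CPM, and the NKT1 gate has 0 Foxp3 UMIs because Foxp3+ cells were set aside before it. Ccr7 was at 9.288 CPM in the Non-GVHD cells with iNKT V beta and 136.4 CPM in the GVHD ones, while Zbtb16 was at 46.99 and 48.82 CPM. Over the whole NKT1 gate Zbtb16 was lower in GVHD, at 46.75 CPM in Non-GVHD and 22.65 CPM in GVHD (log2 ratio -1.05), and in GVHD cells with other V beta segments it was at 4.487 CPM. Zbtb16 is a marker of the NKT2 gate, and cells with more of it leave the NKT1 gate. These Zbtb16 levels are therefore partly set by the gating, and the bound is tighter in cells with fewer NKT1 marker UMIs.

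Restrictions on the cells of the NKT1 gate, all chosen after seeing the data, gave different answers. In cells with an iNKT V beta segment and no Ccr7 UMI, 1978 in Non-GVHD and 183 in GVHD, the log2 ratio was 2.49 for Egr2, 1.54 for Nr4a2, 1.26 for Nr4a1 and 0.82 for Nr4a3. In cells with at least 1 Zbtb16 UMI, 433 and 59, none of 6 genes was higher and 2 were lower (7.16% and 15.0% of 6087 genes). In these cells Nr4a2 was at 35.54 CPM in Non-GVHD and 28.19 CPM in GVHD (log2 ratio -0.33, -1.34 to 0.54), and Nr4a1 at 76.1 and 70.47 CPM (-0.11, -0.72 to 0.45). Egr2 had 32 UMIs in Non-GVHD and 3 in GVHD. Zbtb16 also counts toward the NKT2 list, so cells with it stayed in the NKT1 gate only at an NKT1 share of at least 0.8. Median NKT1 list UMIs per cell of the gate were 17 in Non-GVHD and 9 in GVHD. Cells with a Zbtb16 UMI may therefore be selected differently in these libraries. Another restriction took cells without a UMI of Ikzf2, Ctla4 or Il2ra, and may also remove iNKT cells that hold any of these genes. It left 2004 of 2609 Non-GVHD cells but 262 of 728 GVHD cells. Whether the removed cells were regulatory T cells was not tested. In the cells left, 3 of the 8 genes were higher and 2 lower (7.82% and 12.8% of 8914 genes). The log2 ratios were 1.34 for Nr4a2, 0.65 for Nr4a1 and 0.63 (-0.36 to 1.51) for Egr2. The last rests on 60 UMIs in Non-GVHD and 13 in GVHD. In these cells Nr4a3 and Cd5 no longer passed 1.5-fold, at 0.08 and 0.33, and the genes lower were Egr1 (-0.86) and Egr3 (-0.75). The higher Nr4a and Egr2 levels of the NKT1 gate in GVHD were thus not seen in the few cells with a PLZF transcript. What part of the difference comes from a change in which cells the gate holds, and what part from a change within iNKT cells, cannot be told apart in these libraries.

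Some other targets of TCR signals in the NKT1 gate were higher in GVHD by wider margins. Tnfrsf4 (OX40), a co-stimulatory receptor, was at 19.74 CPM in Non-GVHD and 478 CPM in GVHD, and Tnfrsf9 (4-1BB) at 35.78 and 268.5 CPM. Pdcd1 was at 33.67 and 217.8 CPM. Among the brakes, Spry1, an inhibitor of Ras signals, was at 4.219 and 81.85 CPM, and Dusp4, a MAP kinase phosphatase, at 5.485 and 58.94 CPM. By count 5 of 12 other early targets were higher and 1, Myc, was lower, and 6 of 16 brakes were higher with 2 lower, where 11.3% of all genes tested were higher and 10.3% lower. Of the 11 transducers only Sh2d1a, the adaptor SAP, passed 1.5-fold, at 79.65 and 142.3 CPM. Cd69 and Id3, at log2 ratios of -0.5 and -0.17, did not. The median log2 ratio of the 12 other early targets tested was 0.28, beside 0.03 over all genes tested. Summed over the 13 other early targets, the level was 1046 CPM in Non-GVHD and 1931 CPM in GVHD. Most of the difference between these sums lay in Tnfrsf4, Tnfrsf9 and Pdcd1. With an iNKT V beta segment the sum was 1046 and 1949 CPM. In cells with a Zbtb16 UMI it was 1157 and 1257 CPM, and without a UMI of Ikzf2, Ctla4 or Il2ra 1004 and 1253 CPM. The Foxp3+ gate gave 3555 and 3645 CPM. What part of the difference comes from which cells the NKT1 gate holds was not tested.

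In the NKT2 gate none of the early targets or brakes was at least 1.5-fold higher in GVHD, where 1.40% of all genes tested were higher. Of 12 targets 2 were lower, Cd69 (32.08 and 19.01 CPM) and Irf4 (16.74 and 10.34 CPM), beside 3.19% of all genes tested. The cycling gate had Tnfrsf4 (15.94 and 45.09 CPM), Irf4 (8.12 and 18.2 CPM) and Dusp4 (3.308 and 6.28 CPM) higher, beside 2.11% of all genes tested. Dusp4 rests on 11 UMIs in Non-GVHD and 39 in GVHD, with an interval that spans 0 (log2 ratio 0.92, -0.07 to 2.04). In the mixed gate none was higher, beside 2.86% of all genes tested.

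Across the gates of the BMT libraries, Nr4a1 and Cd5 were at high levels in the gate of cells with Foxp3, the defining factor of regulatory T cells. Nr4a1 was at 144.5 CPM there in Non-GVHD and 173.3 CPM in GVHD, the highest of the gates described here in each library, and Cd5 was at 525.6 and 399.7 CPM, again the highest. In GVHD the Nr4a1 level of the NKT1 gate (164.5 CPM) was close to that of the Foxp3+ gate, and that of cells with too few marker UMIs to be gated was 153.8 CPM. Nr4a2 had its highest levels in the CD8 gate, at 82.36 and 109.6 CPM, with the NKT1 gate of GVHD next at 96.01 CPM. Egr2 differed, with only 7.701 and 6.294 CPM in the Foxp3+ gate.

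Levels in the myeloid gate were low for some of the genes. In the myeloid gate Egr3 was at 0.5755 and 0.8039 CPM, Nab2 at 5.179 and 6.699 CPM and Cd5 at 39.71 and 67.79 CPM. The gate also held Rag1, Rag2, Ptcra and Cd8b1 at a summed 266.4 CPM in Non-GVHD and 550.9 CPM in GVHD. In the NKT2 gate the sum of these genes was 2.325 and 0.8319 CPM. Cd8a and Cd8b1 together were at 481.7 and 756.7 CPM in the myeloid gate, and Cd8a alone at 219.8 and 216.5 CPM. Cd8b1 thus made up most of the sum in that gate. Cells past the CD8 cut were set aside before the NKT2 gate but not before the myeloid gate. The difference between these gates is therefore partly set by the gating. Which cells the sum comes from was not tested. Doublets were kept, so the myeloid levels are no measure of free RNA alone. Myeloid cells and B cells use Egr1 and Nr4a genes themselves, so for these genes they give no background.

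Depth per cell differed between libraries and gates, so shares of cells with a UMI were taken after thinning each cell to 2700 UMIs, which left out 373 Non-GVHD and 64 GVHD cells of the NKT1 gate. A thinned Nr4a2 UMI was present in 5.546% of these cells in Non-GVHD and 19.58% in GVHD (9.736% and 29.4% before thinning). The share for Nr4a1 was 13.28% and 20.93% (19.01% and 29.53%), and for Egr2 2.057% and 4.669% (3.143% and 7.143%). The higher levels in GVHD therefore went with more cells holding a UMI. For comparison, myeloid cells gave thinned shares of 0.9434% and 0.9639% for Nab2, where the NKT1 gate gave 7.826% and 9.639%. Median depths before thinning were 7102 and 7248 UMIs per cell against 4349 and 4526 in the NKT1 gate. Cd5 was seen in 53.99% and 53.78% of thinned NKT2 gate cells, against 4.717% and 7.952% of myeloid cells.

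Some pairs of the genes were also found in the same cells, and others showed no clear difference. In the NKT2 gate, a thinned Egr2 UMI was seen in 17.17% of WT cells that held an Egr1 UMI and 2.116% of those that did not. The values were 14.29% and 1.064% in Non-GVHD and 16% and 2.263% in GVHD, so the intervals with and without an Egr1 UMI lay apart in each library. In the NKT1 gate the shares were 12.5% and 1.072% in WT and 4.563% and 1.287% in Non-GVHD, but 6.202% (2.715% to 11.85%) and 4.299% (2.744% to 6.381%) in GVHD, where the intervals overlap. The shares of the NKT1 gate in GVHD rest on 129 cells with an Egr1 UMI and 535 without. A Fos UMI was seen in 52.38% of Non-GVHD cells of the NKT2 gate with an Egr1 UMI and 51.33% of those without, and in 26% and 28.15% in GVHD. In the NKT1 gate of Non-GVHD a Fos UMI was seen more often with Egr1, in 88.97% (85.98% to 91.52%) and 77.6% (75.55% to 79.56%) of cells. In that of GVHD the shares were 76.74% (68.49% to 83.73%) and 66.36% (62.18% to 70.35%), and these intervals overlap. With and without an Nr4a1 UMI, Fos was seen in 88.55% and 79.01% of NKT1 gate cells in Non-GVHD and in 63.31% and 69.71% in GVHD. The part of the stress response in co-detection in the NKT1 gate was not tested.

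Nr4a1 was seen in 30% of GVHD cells with an Egr1 UMI and 9.76% of those without in the NKT2 gate, and in 32.56% and 18.13% in the NKT1 gate. In Non-GVHD the NKT2 gate gave 12.7% and 9.043%, with overlapping intervals, on 63 cells with an Egr1 UMI. Nr4a3 was seen in 20.86% of GVHD cells of the NKT1 gate with an Nr4a1 UMI and 6.476% of those without. In Non-GVHD the shares were 10.44% (7.203% to 14.49%) and 6.653% (5.584% to 7.855%), and these intervals overlap. The following shares also had overlapping intervals. With and without an Egr1 UMI, Nab2 gave 9.302% and 9.72% in the NKT1 gate of GVHD and 25% and 15.28% in its NKT2 gate. With and without an Nr4a1 UMI, Nr4a2 gave 27.34% and 17.52%, and 0% and 1.271%, in the same gates. Cd5 by Nr4a1 gave 28.96% and 29.4% in the NKT1 gate of Non-GVHD and 46.04% and 35.24% in that of GVHD.

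**Figure D4:**
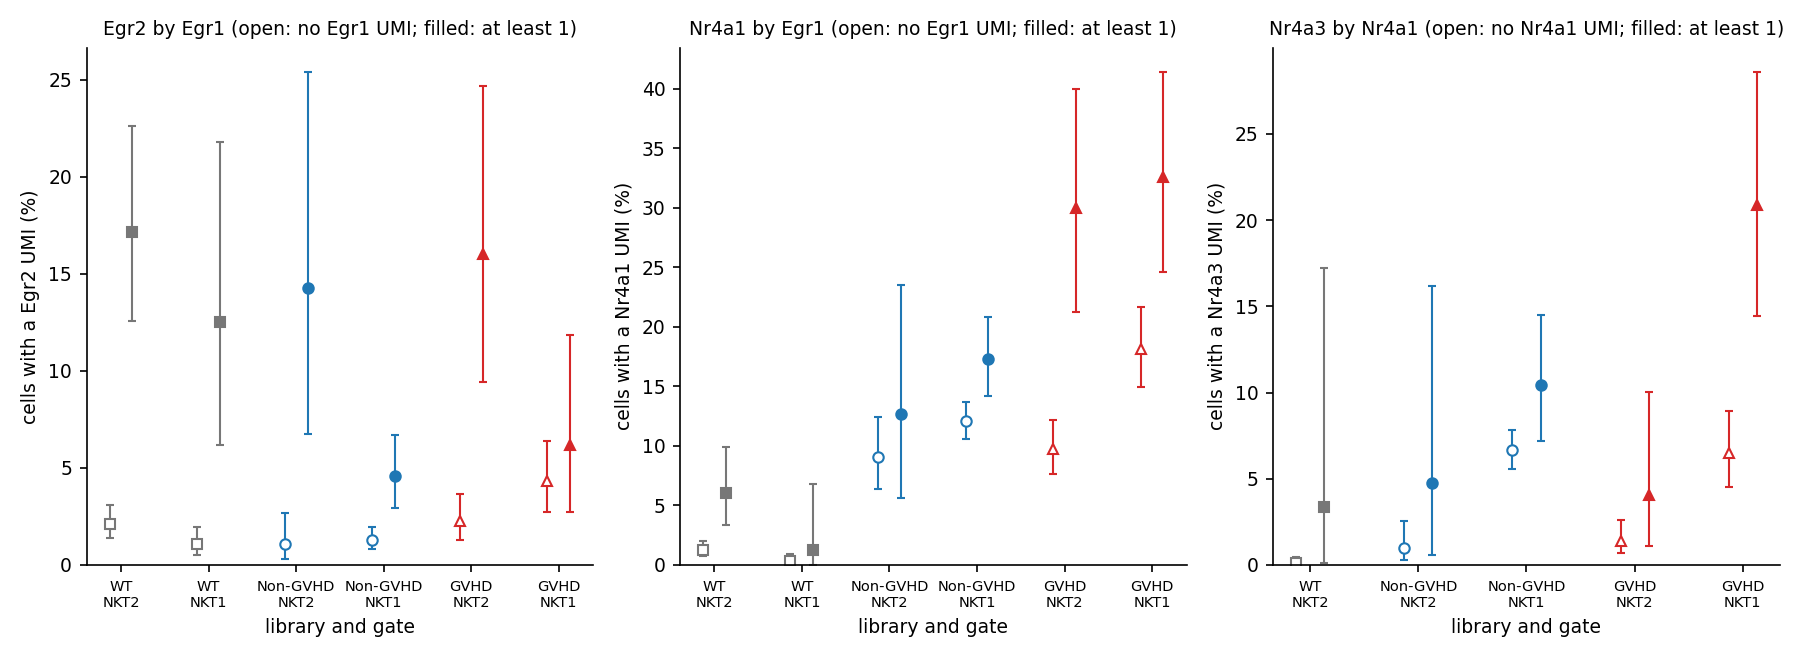
Share of cells thinned to 2700 UMIs that hold a UMI of the gene on the y axis, without (open) or with (filled) a UMI of the other gene named in the title, by library and gate (x axis), with exact 95% Clopper-Pearson intervals. In the NKT2 gate Egr2 was seen in 14.29% to 17.17% of cells with an Egr1 UMI and in 1.064% to 2.263% of those without.

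Ccr7, which marks the precursor stage, divided the NKT2 gate into 819 and 691 WT, 313 and 164 Non-GVHD and 591 and 236 GVHD cells with and without a UMI. The share of all genes past 1.5-fold was not taken for this split. In WT the log2 ratios of the 6 genes with enough UMIs ran from -0.41 for Egr1 to 0.08 for Cd5. In Non-GVHD Egr2 was higher with Ccr7, at 20.27 and 9.612 CPM (log2 ratio 1.08, 0.14 to 2.15), on 64 and 11 UMIs. In GVHD it was not, at 15.32 and 19.22 CPM (-0.33, -0.87 to 0.24), while Egr3 was lower with Ccr7 (-0.74, -1.43 to -0.02) and Nr4a3 higher (0.74, -0.13 to 1.72). Cells with a Ccr7 UMI were deeper in each library, with a median of 10040 UMIs against 7042 in Non-GVHD.

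Over the 26 combinations of gate and library with at least 50 cells, the genes outside the 8 whose log2 levels ran most like those of Egr2 were Rpl34, Rpl18, Rpl22, Eef1a1 and Rpl3, with Pearson correlations of 0.79 to 0.81 among 11269 genes. Those most like Nr4a1 were Gm15283, Ripk2, Atl3, Nfkbia and Igflr1 (0.96), and Nr4a3 and Nr4a2 reached 0.95 and 0.90. Those most like Cd5 were Trav14d-3-dv8, Nipsnap1, Cd6, Lcp2 and Ptpn5 (0.90 to 0.93). The combinations share libraries and depth, so with each library centred on its own mean, a setting chosen after seeing the data, the leading genes for Nr4a1 became Nrip1, Galm, Uhrf2, Trav14-3 and Ptpn13, and Nr4a3 had 0.83. For Egr2, Rpl22, Rpl34 and Rpl18 stayed among the 5, with Rpl22 leading them at 0.84, and Egr3 ran closer than any of these at 0.86. For Cd5, its close relative Cd6 then led at 0.96 and Nab2 had 0.86.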

How the data were processed

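Droplet (10x Genomics) libraries of sorted thymic cells, 1 per group, were analysed from the UMI counts per gene and cell that the authors deposited, unnormalized. Per the labels the build was mm10 and Seurat 4.0.2 was used. The headers of the deposited count matrices name Cell Ranger 3.0.2 for WT and 7.0.0 for the BMT libraries, and the methods state another version. The kits named include 3' and 5' chemistries without saying which library used which. The filter kept more cells of the BMT libraries than the study states.

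Raw counts of the 30406 shared identifiers were summed over the cells of a gate and divided by all their UMIs (CPM). Gates were applied in the order B cell or myeloid (at least 3 UMIs of a list), Foxp3 (1), CD8 (2), NKT17 (2) and cycling genes (5); remaining cells with at least 3 UMIs of the NKT1 and NKT2 lists fell in the NKT1 gate at an NKT1 share of at least 0.8, in the NKT2 gate at a share of at most 0.2, and in the mixed gate between them. A V beta segment was named where it held at least 80% of a cell's V beta UMIs, with Trbv12-2 and Trbv13-2 taken as 1 segment. Ratios have exact conditional (binomial) intervals, shares exact Clopper-Pearson ones. Values of the NKT17 gate are not reported here. No test across cells was run, since cells are not replicates. Doublets were kept and no caller was run.

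Named are the 8 genes, up to 3 genes at either end of each pathway list past 1.5-fold with at least 50 UMIs, Cd69, Pdcd1, Id3 and Zbtb16, and the 5 genes most like Egr2, Nr4a1 and Cd5. Genes and lists were chosen with earlier results of these data known. Other genes given with values were chosen after these were seen. Alternatives numbered 9 planned (filter, thinning, gate shares, marker UMIs, V beta, scaling, mean over cells, and removal of the deepest or most stressed cells) and 5 added. Python 3.11.15, numpy 2.4.6, scipy 1.17.1, pandas 2.3.3 and matplotlib 3.10.9 were used; scripts were tested on simulated counts. Annotation was GENCODE for GRCm38.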

Additional observations from a re-analysis of the deposited data

Results flagged for a closer look

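Some ratios pointed in opposite directions in the groups compared. None of these differences was tested, since each condition has 1 library. Egr1 had a log2 ratio of the NKT2 gate over the NKT1 gate of 0.69 in WT but -1.15 in Non-GVHD and -0.74 in GVHD. Nr4a1 had 1.03 in WT, -0.51 in Non-GVHD and -1.19 in GVHD. Egr2 had 0.71 in WT and 1.09 in Non-GVHD but -0.56 in GVHD. For GVHD over Non-GVHD, Nr4a1 had a log2 ratio of 1.22 in the NKT1 gate, 0.54 in the NKT2 gate and 0.36 in the cycling gate, but -0.76 in the mixed gate, which became 0.04 with thinned cells.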

How the results depend on the processing

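No paired analysis was possible because each group has 1 library, and leaving out a replicate could not be done. Of 581 values of single genes under the alternatives, 484 stayed within the main counting interval, 92 moved and 5 that had passed 1.5-fold changed sign. In the NKT1 gate, cells with a Zbtb16 UMI gave GVHD over Non-GVHD log2 ratios of -0.92 for Egr2, -0.11 for Nr4a1, -0.33 for Nr4a2 and -0.59 for Nr4a3, with 0 genes higher and 2 lower in place of 5 and 0. Cells without Ikzf2, Ctla4 or Il2ra gave 3 higher and 2 lower, and the mean over cells gave 1 lower. For the NKT2 over the NKT1 gate, the count higher in WT went from 5 to 3 with thinned cells and to 3 with iNKT V beta, and in GVHD from 2 to 1 with iNKT V beta and to 1 without cells of more than 2 Fos UMIs. In the NKT2 gate, the 0 genes higher in GVHD became 1 with at least 5 marker UMIs, 1 with iNKT V beta and 1 without the Fos cells, and the 0 lower became 1 with the mean over cells and 1 without the top 5% of cells by UMIs. In the mixed gate, the 1 lower became 0 with thinned cells (Nr4a1 log2 ratio 0.04), 3 with gate shares of 0.9 and 0.1, 3 without the top 5% of cells, and 2 each with the mean over cells, iNKT V beta or no Fos cells. In the cycling gate, the 1 higher became 0 with iNKT V beta and 0 without the Fos cells, and the 0 lower became 1 with the mean over cells. The causes were not tested. Some alternatives left far fewer cells. In WT, thinning before gating left 400 of 1510 NKT2 gate cells and 884 of 1014 NKT1 gate cells, and iNKT V beta left 295 and 82. A gene also leaves a count when it has too few UMIs to be tested, so a lower count need not mean a lower ratio. Neither the number of genes tested nor the share over all genes is given beside these counts. Genes with few UMIs, such as Egr3 in the BMT libraries and Nr4a2 and Nr4a3 in WT, limit what these depths show.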
